A study of Mus musculus with 2 samples.

Results

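The p53 target genes described here are Phlda3, Sesn1, Sesn2, Cdkn1a, Mdm2, Ccng1, Bax, Bbc3, Trp53inp1 and Zmat3, 10 genes of the 20655 that the array's probe accessions name. All 12 of their probes were taken, each assigned through the transcript accession of the array design. Of the 10 genes, 9 had a probe well above background on both arrays, as did 10223 genes in all, and Zmat3 had none. The genes were measured in blood cells of mouse fetal liver at embryonic stage E13.5, sorted by SoNar, a fluorescent protein sensor of the cytosolic NADH/NAD+ state. SoNar-high and SoNar-low cells were separated on the sensor's F405/F488 fluorescence ratio, and total RNA of each population was hybridised to 1 array in 1 colour (Cy3). The SoNar-high sample carries the strain label C57BL/6, and the SoNar-low sample C57BL. The sources used here do not say how the cells came to carry the sensor or whether embryos were pooled. No treatment, mutant allele or stimulus of p53 is labelled in either group. The comparison asks whether genes of the p53 response differ with the sensor ratio.

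The transcription factor p53 is held at a low level by Mdm2, an E3 ubiquitin ligase that is itself encoded by a p53 target gene, so that the pathway limits its own output. DNA damage, ribosome stress and oncogene activity release p53 from Mdm2, and p53 then binds paired half-sites in DNA and activates genes of cell cycle arrest, cell death, DNA repair, growth control and redox balance. In fetal liver, where erythroblasts divide rapidly as they mature, too much p53 activity, as after loss of Mdm2 or impaired ribosome assembly, is known to block red cell production.

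The promoter sequences show where the p53 half-site, the unit that 1 p53 dimer contacts, lies near the start sites of these genes. RefSeq windows of GRCm38.p6, from 250 bases before to 50 after a start, were held for 8 of the 10 genes (12 windows), and not for Trp53inp1 and Zmat3. A pair of half-sites no more than 13 bases apart, with at most 2 mismatches to the consensus in all, was present in 4 of the 12 windows and in 4.09% of 32851 windows of all genes. The core C and G of each half-site in a pair were required to match. The half-site consensus reads the same on both strands. Below, in lower case with the half-sites in capitals, are the matches of Cdkn1a (chr17:29090918-29090957, plus strand, 1 mismatch), Ccng1 (chr11:40755452-40755491, minus strand, 1 mismatch), Bax (chr7:45467069-45467109, minus strand, 2 mismatches) and Sesn1 (chr10:41887243-41887285, plus strand, 2 mismatches), 5′ to 3′. They are shown because they set adjacent half-sites beside genes whose signals differed little (Ccng1) or by over 2-fold (Sesn1).
Cdkn1a: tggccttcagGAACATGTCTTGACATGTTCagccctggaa
Ccng1: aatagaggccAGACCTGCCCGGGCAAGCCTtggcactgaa
Bax: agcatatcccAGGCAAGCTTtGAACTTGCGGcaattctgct
Sesn1: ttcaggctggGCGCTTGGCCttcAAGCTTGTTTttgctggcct
In Cdkn1a and Ccng1 the half-sites abut with no base between them, while Bax has 1 base and Sesn1 has 3 bases between them. The Sesn1 pair lies in 1 of that gene's 2 windows, and so does the Cdkn1a pair in 1 of its 2. Which transcript starts at either window was not matched to the array probes. Mdm2 held a single exact half-site and no pair (chr10:117710925-117710954, minus strand).
Mdm2: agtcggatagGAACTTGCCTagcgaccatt
The single windows of Phlda3 and Sesn2 and the 3 windows of Bbc3 held no exact half-site, which says only that those letters are not in these windows. At least 1 exact half-site, with or without a pair, was in 5 of the 12 windows and in 8.36% of the windows of all genes.

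The p53 target genes did not move together between the arrays. Phlda3 was 3.59-fold higher and Sesn1 2.62-fold lower in SoNar-high cells, and the other 7 measured genes differed by less than 2-fold between the 2 arrays. Of the 9 measured genes, 1 was thus past 2-fold upward and 1 past 2-fold downward. Of all measured genes, 5.28% were at least 2-fold higher in SoNar-high cells, and 4.44% were lower by that much. Any single gene of 9 exceeds those shares, so the counts are no result about the target genes as a set. The median difference of the 9 was -0.21 (log2, SoNar-high minus SoNar-low), beside -0.08 for all measured genes, and 7 of the 9 were negative, as were 55.8% of all measured genes. With 1 array per group there is no replicate error and no test. The errors given below are the scanner software's own estimate for a spot, carried over to the difference, and cover neither animals nor sorts. In total RNA of a sorted population, fewer cells that express a gene and less of its RNA per cell cannot be told apart. Levels are log2 signals relative to the 75th percentile of each array, and processed signals are background-subtracted scanner units before that scaling.

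**Figure D1:**
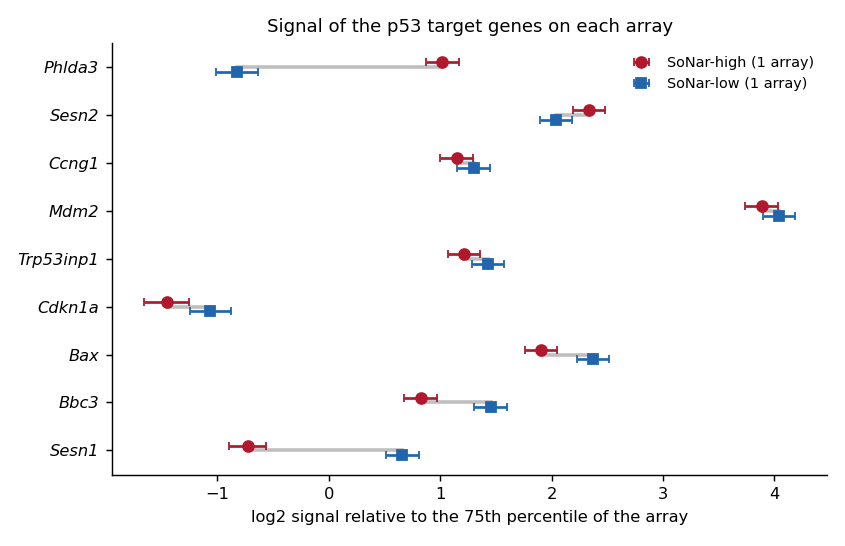
Level of the 9 measured p53 target genes on each array (x axis, log2 signal relative to the array's 75th percentile; circles SoNar-high, squares SoNar-low, 1 array each; bars, the scanner's error of the spot signal), ordered by the difference. Phlda3 (1.02 against -0.82) and Sesn1 (-0.73 against 0.66) are the 2 genes whose levels lie more than 1 unit apart, in opposite directions.

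Phlda3 encodes a small pleckstrin-homology protein that binds membrane phosphoinositides and thereby restrains the kinase Akt. Its processed signal was 378 units in SoNar-high and 126 units in SoNar-low cells, and after scaling its level was 1.02 and -0.82, respectively. The SoNar-high value was the larger one, and the difference was 1.84 ± 0.24 (log2, scanner error). Among 10223 measured genes, 95 had a larger positive difference, which puts Phlda3 at the 99.1 percentile. Under the settings that changed its value it stayed past 2-fold, from 1.43 after normexp background correction to 2.02 with scaling on detected probes. Each measured target gene has only 1 measured probe. Settings that alter just the dim-probe filter or the choice among probes thus return its reported value or drop it, and add no support. Phlda1, a related gene that also encodes a pleckstrin-homology protein, had a difference of 0.15 that changed sign between settings (-0.05 to 0.36). The single probe of Phlda2 was not well above background on either array.

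The sestrins are stress-induced proteins that lower mTORC1 activity by binding the GATOR2 complex, and Sesn1 and Sesn2 are both p53 targets. Sesn1 gave 113 units in SoNar-high and 352 units in SoNar-low cells, the only measured p53 target gene of the 9 that was at least 2-fold lower. After scaling the levels were -0.73 and 0.66, a difference of -1.39 ± 0.22 (log2, scanner error). The difference of 101 measured genes was more negative. Under the settings that changed its value it lay between -1.40 and -1.11, past 2-fold in each. Sesn2, which is also induced by amino acid and oxidative stress, gave 941 and 912 units, nearly equal before scaling. After scaling Sesn2 was slightly higher in SoNar-high cells (2.34 against 2.04), a difference of 0.30 ± 0.20 that was positive under all settings (0.30 to 0.51). The third sestrin, Sesn3, a target of FoxO factors, was on the list of close relatives and gave 43.4 and 144 units. Its difference of -1.48 was on the side of Sesn1, and it was -0.70, under 2-fold, after normexp. The gap between Sesn2 and Sesn1 was 1.69 (log2), which a common scaling leaves unchanged because it shifts both alike. Over all settings the gap ran from 1.52 after normexp to 1.89 after quantile normalization, which do not shift both alike.

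**Figure D2:**
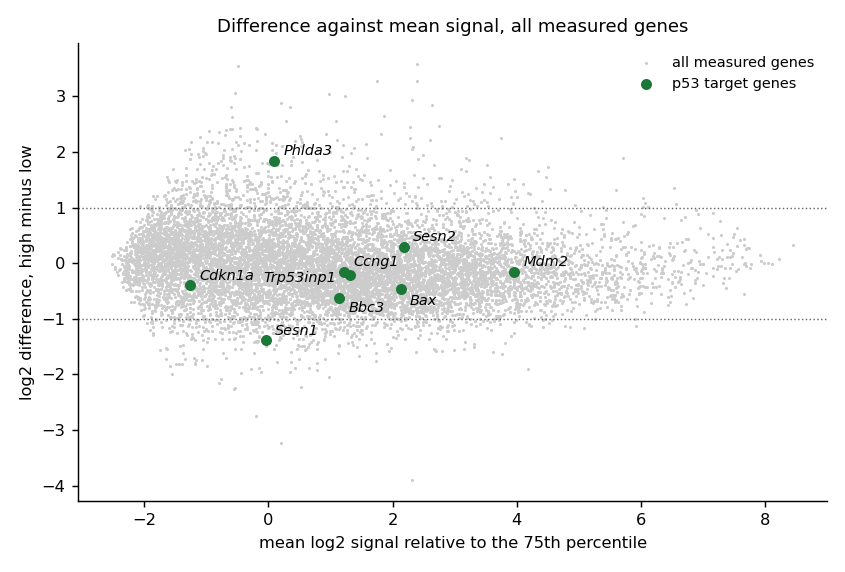
Difference of each of 10223 measured genes (grey; y axis, log2 SoNar-high minus SoNar-low) against its mean level over the 2 arrays (x axis, log2 relative to the 75th percentile), with the 9 measured p53 target genes in green and dotted lines at 2-fold. Phlda3 and Sesn1 have similar mean levels and lie beyond the opposite lines, and the other 7 lie between the lines.

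Brightness did not separate Phlda3 from Sesn1. Both belonged to the middle tercile of measured genes by mean signal, in which 5.66% of genes passed 2-fold upward and 5.40% downward. In that tercile were also Bbc3, Ccng1 and Trp53inp1. Bax, Mdm2 and Sesn2 belonged to the bright tercile, where 2.96% passed 2-fold upward and 3.40% downward, and Cdkn1a to the dim tercile (7.22% and 4.52%).

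The cell cycle and feedback genes of the set differed little. Cdkn1a encodes p21, the inhibitor of cyclin-dependent kinases through which p53 arrests the cycle. Its main probe was printed at 10 spots of each array, the only repeated probe among the 12. On the SoNar-high array these spots ran from 58.7 to 76.8 units (median 67.5), and on the SoNar-low array from 94.7 to 131 units (median 106). The 10 SoNar-low spots were all above the 10 SoNar-high spots. After scaling they still did not overlap, but narrowly, with the highest SoNar-high spot at -1.28 and the lowest SoNar-low spot at -1.23. Spots of 1 array share its RNA and its hybridisation, so they show the precision of the reading and not a difference between cell populations. The SD over the SoNar-high spots was 0.10 (log2), and over the SoNar-low spots 0.14. The difference of Cdkn1a was -0.39 ± 0.27 (scanner error of single spots), negative under all 9 other settings that kept the gene (-0.55 to -0.20). With processed signals of at least 100 required, the gene was left out.

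**Figure D3:**
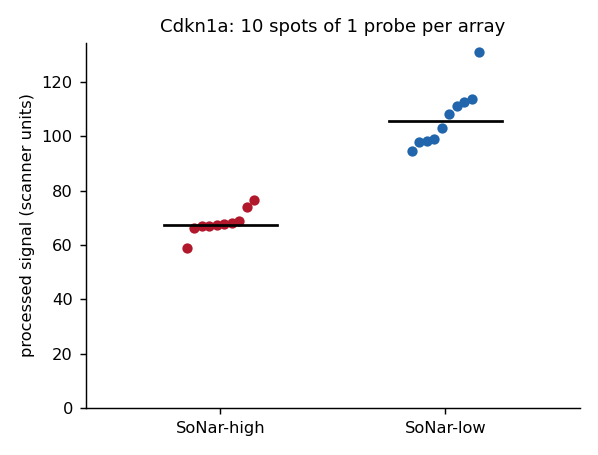
Processed signal (y axis, scanner units before scaling) of the 10 spots of the main Cdkn1a probe on the SoNar-high and the SoNar-low array, with the median as a bar. The SoNar-high spots reach 76.8 units and the SoNar-low spots start at 94.7 units.

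The main probe of Cdkn1a was designed on transcript NM_007669. A second probe, designed on NM_001111099, gave 31.7 units in SoNar-high and 15.4 units in SoNar-low cells and passed the background call only in SoNar-high cells. Measured against the lowest signal well above background there, it was at least 1.02-fold higher in SoNar-high cells, the side opposite to the main probe, and this lower bound does not give the size of the difference. Which Cdkn1a transcripts each probe binds was not tested. Among related inhibitors, Cdkn1c (p57) was at 0.96 (log2), close to 2-fold higher, and Cdkn1b (p27) at -0.04 and on either side of 0 between settings (-0.06 to 0.16).

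Mdm2 was bright on both arrays, with 2753 units in SoNar-high and 3653 units in SoNar-low cells. Its difference of -0.16 ± 0.20 was within the scanner error and was positive under 4 of the 10 other settings (-0.27 to 0.07). Mdm4, the partner of Mdm2 that inhibits p53 without degrading it by itself, was dim (68.9 and 52.0 units) and at 0.66, with all settings between 0.27 and 0.84. Ccng1, a cyclin that recruits the phosphatase PP2A to Mdm2, gave 414 units in SoNar-high and 547 units in SoNar-low cells. The Ccng1 difference of -0.15 ± 0.21 was also within the scanner error and turned positive under 3 settings (up to 0.03). Its relative Ccng2 had -0.62 (-0.22 after normexp). Neither Mdm2 nor Ccng1 showed a direction that held under every scaling.

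The cell death genes were lower in SoNar-high cells by less than 2-fold. Bbc3 encodes Puma, a BH3-only protein that neutralises the survival members of the Bcl2 family. It gave 331 units in SoNar-high and 609 units in SoNar-low cells, a difference of -0.63 ± 0.21. Bax, which forms pores in the outer mitochondrial membrane, gave 697 and 1150 units, a difference of -0.47 ± 0.20. Over all settings both stayed lower in SoNar-high cells, Bbc3 between -0.63 and -0.45 and Bax between -0.53 and -0.26. Settings that alter only the filter or the choice among probes cannot change these 2 values. Trp53inp1, a nuclear and autophagy protein that promotes p53 phosphorylation, gave 433 units in SoNar-high and 598 units in SoNar-low cells at its bright probe. The difference there was -0.21 ± 0.21, about the size of the scanner error, and stayed negative under the other settings (-0.34 to -0.03). A second Trp53inp1 probe, at 24.9 and 25.2 units, was not well above background on either array. Zmat3, a zinc finger protein that binds RNA and regulates splicing, gave 6.27 and 9.60 units at its only probe, not well above background on either array, so it has no fold.

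**Figure D4:**
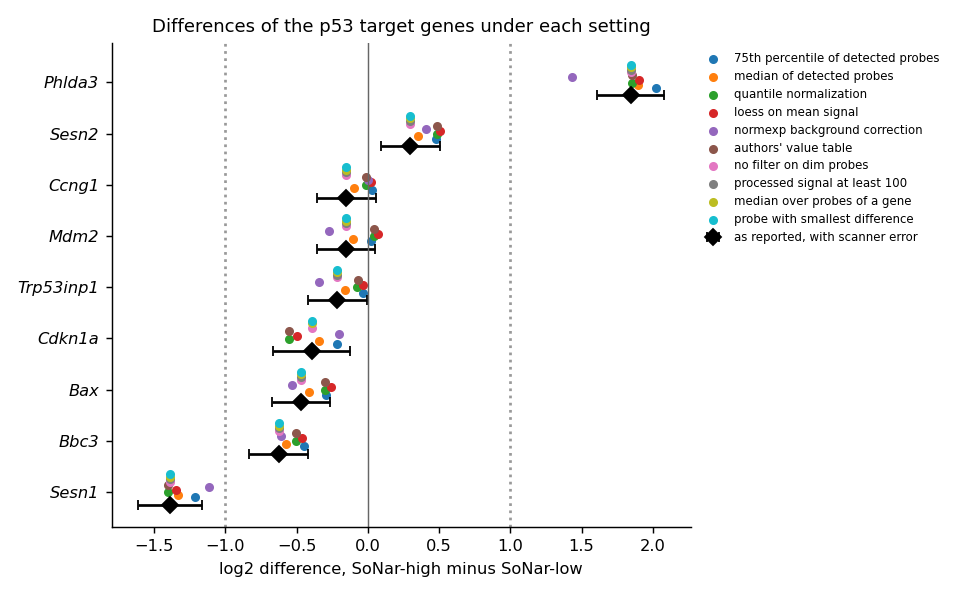
Difference of each measured p53 target gene (x axis, log2 SoNar-high minus SoNar-low) as reported (black diamonds, with the scanner error) and under 10 other settings (coloured points), with dotted lines at 2-fold. Phlda3 and Sesn1 stay beyond the lines under every setting, while the points of Mdm2 and Ccng1 lie on both sides of 0.

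Across 9 further lists of the pathway, 125 further genes were measured on both arrays, of which 4 passed 2-fold upward and 7 downward in SoNar-high cells. These are 3.20% and 5.60%, beside the 5.28% and 4.44% of all measured genes, and their median difference was -0.12. The counts of single lists below stand beside the same 5.28% and 4.44%, and are too small to be results about a list. The lists overlap, since a gene such as Bak1 counts both as a relative of Bax and as a Bcl2 family member.

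Upstream of the targets, the only Trp53 probe, for p53 itself, gave 25.9 units in SoNar-high and 25.5 units in SoNar-low cells and was not well above background on either array, so these files give no difference for p53 RNA. The same held for both probes of Cdkn2a, whose ARF product inhibits Mdm2. Of 24 genes of p53 and its regulators, 22 were measured, 2 of them past 2-fold upward and 1 downward. Their median was 0.05 and fell below 0 under 4 settings (to -0.28). Crebbp, an acetyltransferase and coactivator of p53, was at 1.17 (301 against 160 units), and at 0.96 at its lowest. Hipk2, a kinase of p53, was at 1.05, and its other probe at 0.65. Hipk2 came under 2-fold after quantile normalization (0.97) and normexp (0.67), and in the authors' value table. It was also under 2-fold with the median over its probes and with the probe of smallest difference (0.65). With processed signals of at least 100 required, its brightest probe was left out (99.2 units in SoNar-low cells). Npm1, a nucleolar protein that can bind Mdm2, was at -1.12 at its brightest probe (7689 against 19967 units), while its other 4 probes ran from -0.82 to 0.00. The probes of Npm1 therefore do not give 1 value for the gene. The brightest came under 2-fold with scaling on detected probes (-0.95), and narrowly after loess (-0.993) and quantile normalization (-0.999).

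Other known p53 targets also lay on both sides of 0. Of 9 measured genes of arrest and feedback, the kinase gene Plk3 was at least 2-fold higher (1.19; 689 against 360 units) and none at least 2-fold lower. In that group Gtse1, a regulator of p53 in G2 phase, was at -0.80 and Sfn (14-3-3 sigma) at 0.80. Their median was -0.46 and stayed negative under the other settings. Of 13 measured cell death targets, Dram1, an autophagy regulator of lysosomes, was at 1.34 (242 against 114 units), and Siva1 was at -1.04 with a second probe at -0.56. Siva1 came under 2-fold in 7 of the 10 other settings, among them scaling on detected probes (-0.86), quantile normalization (-0.86) and loess (-0.82). The death receptor Fas was at 0.91, and the median of these 13 was -0.20. Dram1 was under 2-fold after normexp (0.88).

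Among 13 measured metabolic and redox targets, 1 passed 2-fold downward and none upward. It was Trp53i11 (-1.01; 1254 against 2999 units), which was only just past 2-fold and came under it in 6 of the 10 other settings, among them scaling on detected probes (-0.83), loess (-0.79) and normexp (-0.79). On the same metabolic list Trp53i13 was at -0.92 and Prkab1, a subunit of AMP-activated kinase, at 0.89. Pltp, also on that list, passed the background call only in SoNar-high cells, at least 2.58-fold higher there. Rap2b of the same list passed it only in SoNar-low cells, at least 1.45-fold higher there. Of 7 measured DNA repair targets, 1, not reported here by name, passed 2-fold downward and none upward, with a median of -0.17. None of them passed 2-fold with scaling on detected probes, after quantile normalization or loess, or in the authors' value table. Among the others, the replication clamp gene Pcna had -0.68 and the translesion polymerase gene Polh 0.49. The repair target Polk passed the background call only in SoNar-high cells, at least 1.57-fold higher by its brighter probe.

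All 17 measured Bcl2 family genes stayed within 2-fold, as did 90.3% of all measured genes. The difference was negative for 12 of the 17, beside 55.8% of all measured genes. Under the other settings that keep these 17 genes, it was negative for 10 to 12. Their median was -0.30, beside -0.08 for all measured genes. Besides Bbc3 (-0.63), the largest were the survival genes Bcl2a1d (-0.73), one of a group of near-identical copies that a probe may not separate, and Bcl2 (-0.64). Of the genes named after their values were seen, Pmaip1, which encodes the BH3-only p53 target Noxa, had -0.50, Bak1, the pore-forming partner of Bax, -0.30, and Bcl2l1, which encodes the erythroid survival factor Bcl-xL, 0.37.

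Of 15 measured genes of the sestrin and mTORC1 branch, 2 were at least 2-fold lower and none was higher by that much. Tsc1, a subunit of the complex that holds mTORC1 inactive, had -1.37 (215 against 665 units), and Rptor, the scaffold subunit of mTORC1, -1.12 (80.6 against 208 units; -0.75 after normexp and -0.94 with scaling on detected probes). The list's median was 0.17 and was positive under every setting. The genes that p21 and the DREAM complex repress are the opposite arm of the response, since they code for cell division proteins. All 26 measured genes of this list stayed within 2-fold, as did 90.3% of all measured genes. The list's median was -0.21, beside -0.08 for all measured genes. Bub1, a spindle checkpoint kinase, had -0.95 and Lin9, a DREAM subunit, -0.84.

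**Figure D5:**
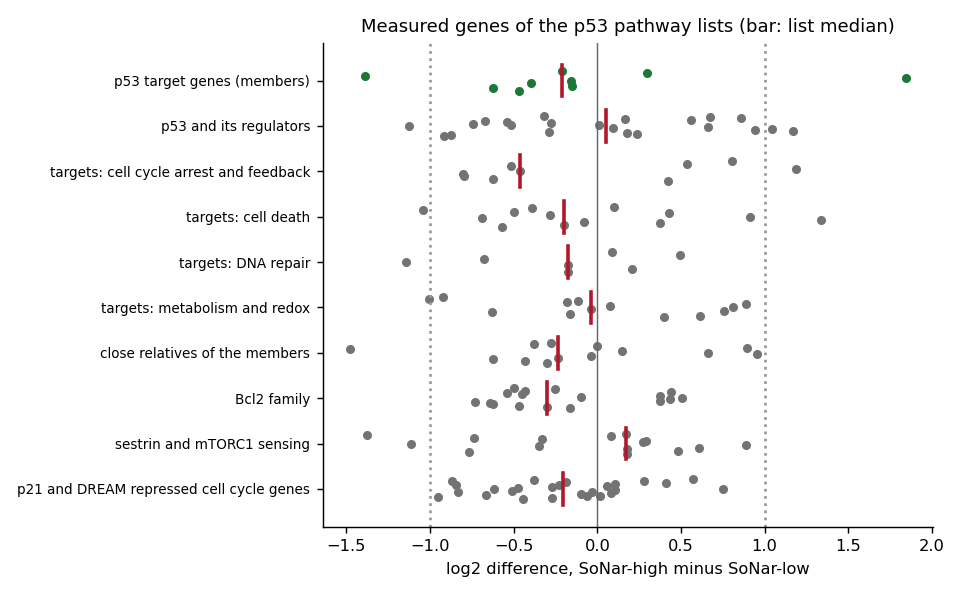
Difference (x axis, log2 SoNar-high minus SoNar-low) of each measured gene of the 10 p53 target genes (green) and of 9 further lists of the pathway (grey), with the list median as a red bar and dotted lines at 2-fold. The list medians run from -0.46 to 0.17, and Phlda3, at 1.84, is the highest point.

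The populations also differed in markers of cell types, and the part of cell composition in the values of Phlda3, Sesn1 and the other target genes was not tested. Erythroid markers were measured for 13 of 15 genes on both arrays, as for blood cells of fetal liver, and 9 were at least 2-fold higher in SoNar-high cells (summed level 150 against 116 times the 75th percentile). Macrophage markers had 8 of 10 measured genes at least 2-fold higher (summed level 105 against 41.0), with Timd4, Spic and Fcgr1 below the background call in SoNar-low cells. Hepatoblast markers had 6 of 8 higher (86.7 against 30.2) and endothelial markers 4 of 6 (34.1 against 21.8). Neutrophil and granulocyte markers had 3 of 12 at least 2-fold higher and 11 of 12 positive (1235 against 827), and mesenchymal markers had 3 of 4 higher and 1 lower (9.65 against 3.83). In the direction of Sesn1, B lymphoid markers had 7 of 10 at least 2-fold lower (27.8 against 79.1), stem and progenitor markers 3 of 12 (79.3 against 126) and T and natural killer markers 4 of 6 (10.7 against 34.0), with Il2rb, Gata3 and Cd3g below the background call in SoNar-high cells but Cd3d above it only there. The other 2 measured T and natural killer genes, Cd3e (0.87) and Nkg7 (0.22), were positive. Of the erythroid markers 12 were positive and Hemgn negative (-0.43), and of the endothelial markers 5 were positive and Egfl7 negative (-0.31). All 12 measured stem and progenitor markers were negative, but Procr passed the background call only in SoNar-high cells. Megakaryocyte markers had 1 of 6 higher and none lower (median difference 0.49), and mast cell, basophil and eosinophil markers 1 of 6 higher and 1 lower (26.7 against 28.5). The background call was passed by 49.4% of non-control spots for SoNar-high cells and by 42.4% for SoNar-low cells, and no spot was saturated.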

How the data were processed

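The deposited spot intensities come from Agilent Feature Extraction, with the background-subtracted processed signal and its error, per the file headers (version 11.0.1.1; the submitters' processing notes name 9.1). The log2 value table deposited by the authors has an unstated normalization. Its columns share a median of 4.80 and, when sorted, differ by at most 0.000544, the shared distribution that quantile normalization gives. The differences between the columns had a correlation of 0.966 with the scanner differences across measured probes, which gave the direction of the table. The value table served as an alternative only.

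Control and outlier spots were removed, log2 processed signals were set relative to the 75th percentile of 43020 non-control spots (187 and 222 units), and spots of a probe were averaged. A probe was measured if the majority of spots passed the scanner's well-above-background call, with none saturated, on both arrays, and the brightest measured probe stood for a gene. Of 39420 probes, 27229 were named by accession through the RefSeq table of GRCm38.p6, whereas the design refers to mm9. The spread between spots of 213 probes printed 10 times had a median SD of 0.15 for a log2 difference. A one-array bound used the lowest signal well above background on the dim array. Tools were limma 3.58.1 (normexp), statsmodels 0.14.6 (loess) and pandas 2.3.3.

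All 10 target genes were described. From each further list, those past 2-fold were named or, if fewer than 3, the 3 with the largest absolute difference, with Trp53 and Mdm4 always. The members and lists were chosen with earlier results of these data known. A pattern over 2 arrays is 1 difference, so no gene was named for likeness to another. Some genes of the further lists are not reported here by name.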

Additional observations from a re-analysis of the deposited data

How the results depend on the processing

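Under the 10 other settings, 1 target gene passed 2-fold upward and 1 downward in each. These settings are not 10 separate checks. Those that alter only the filter or the choice among probes return the reported value of a gene with 1 measured probe, or drop it. The authors' value table gave nearly the values of quantile normalization (Phlda3 at 1.855 in each). At 1.5-fold 2 genes were lower, and at 3-fold 0. The median of the target genes was -0.0361 with scaling on detected probes and -0.0337 after loess. Mdm2 became positive with scaling on detected probes (0.0224), quantile normalization (0.0399), loess (0.0723) and the authors' value table (0.0416), and Ccng1 with scaling on detected probes (0.0267), loess (0.0229) and normexp (0.00193). Of the further listed genes, 4 higher and 7 lower became 10 and 2 with scaling on detected probes, 10 higher with dim probes kept, 1 higher after normexp, and 4 lower after quantile normalization, loess and in the value table. They became 18 and 28 at 1.5-fold and 0 and 0 at 3-fold. Scaling on detected probes moved the median of all genes by 0.18, loess by 0.10 and keeping dim probes by 0.11, and the 540 higher and 454 lower genes became 817 and 227, 649 and 348, and 2476 and 659. Scaling on detected probes adds the same 0.18 to every difference, and keeping dim probes raises the number of genes from 10223 to 20655. Why the 2 scalings differ, and the cause of the change after loess, were not tested. Relative to the median of all genes, Phlda3 was at 1.93 and Sesn1 at -1.31. No paired analysis was possible because each group has 1 array. The background signal limits the reading of dim probes, such as those of Cdkn1a, Trp53 and Zmat3.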
